A study of Mus musculus with 6 samples.

Results

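Costimulatory receptors decide, together with the antigen receptor, how a T cell responds. CD28 on T cells binds CD80 and CD86 on antigen-presenting cells, and its relative ICOS binds ICOSL. OX40, 4-1BB, GITR and CD27 are receptors of the TNF receptor superfamily that signal through TRAF adaptors to NF-κB, and CD40L on activated helper T cells engages CD40 on B cells, dendritic cells and macrophages. The transcripts of 9 such genes were followed here: Tnfrsf4 (OX40), Tnfrsf9 (4-1BB), Tnfrsf18 (GITR), Cd27, Cd28, Icos, Cd40lg, Cd40 and Icosl. They were taken by name, 9 of the 32285 genes of the deposited count tables, with no threshold on their values.

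Single-cell RNA-Seq was carried out on CD45+ cells from B16-F10 tumors, a transplanted mouse melanoma, grown in female mice of strain C57BL/6 aged 6 to 10 weeks. Both groups received 150 μg anti–PD-1 antibody per mouse 3 times a week from day 7, and the αPD-1 + corin group also received 200 μg corin, an inhibitor of the CoREST corepressor complex, by daily i.p. injection from day 6. The question was how the addition of corin to PD-1 blockade altered the tumor's immune cells. There were 3 αPD-1 and 3 αPD-1 + corin samples. Each treatment arm held 10 mice, and the labels do not tie a sample to a mouse, so p-values measure the spread between these samples, which may be technical. CD45+ cells were taken with magnetic beads from frozen and thawed suspensions after dead cells were removed.

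Libraries held 52281422 to 84276739 UMIs (unique transcript molecules). Of 52899 barcodes, 28865 cells were kept, and 93 barcode sequences occurred in more than 1 sample (186 kept cells). The analysis used 2055 CD8 T, 323 CD4 T, 211 Foxp3+ T, 452 NK, 2660 B, 1034 dendritic (DC) and 10230 macrophage cells. T cells were divided by UMIs of Foxp3, Cd8a, Cd8b1 and Cd4 alone, and another 1348 T cells that these UMIs did not place were not split. In macrophages, the summed counts of the αPD-1 + corin samples differed more from each other than those of the αPD-1 samples. The chi-square per degree of freedom between samples was 19.2 to 69.6 against 4.60 to 6.34. This measure grows with depth, and these sums held 6211060 to 18130104 UMIs against 3395305 to 5223189 UMIs. Other lineages were not compared in this way. The αPD-1 + corin samples also held few of some cells: 13, 26 and 31 CD4 T cells, 16, 56 and 20 Foxp3+ T cells, and 47, 48 and 11 B cells. In every sample the lineages carried their defining markers, with Cd3e at 474 to 834 CPM (UMIs of a gene per 1000000 UMIs of that lineage in that sample) in the T cell classes, Foxp3 at 378 to 825 CPM in Foxp3+ T cells, Ncr1 at 309 to 416 CPM in NK cells and C1qa at 1449 to 2106 CPM in macrophages. These genes were used to name or split the cells, so their levels are a description and no check of the lineages. Foxp3+ T cells also held Cd8a at 0 to 249 CPM, against 508 to 678 CPM in CD8 T cells. Levels below are given in CPM, sample by sample in the order of the replicate numbers.

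The 3 receptor genes whose levels set the Foxp3+ T cells apart lie on chromosome 4, on the plus strand. In GRCm39 (GENCODE vM39) Tnfrsf9 covers 150999019 to 151030559, Tnfrsf4 covers 156098293 to 156101069, and Tnfrsf18 starts 9551 bases after the end of Tnfrsf4 and covers 156110621 to 156113352. Their promoters, from 250 bases before to 50 bases after each annotated start, are shown because all 3 genes were higher in Foxp3+ T cells than in CD4 T cells, as given below. The sequences are RefSeq's, on build GRCm38.p6, and capitals mark a κB motif (bound by NF-κB factors, here 3 G, 2 bases of any kind, 3 T and 2 C) or an AP-1 motif (TGANTCA), searched on both strands.
Tnfrsf9, first start, chr4:150919905-150920204: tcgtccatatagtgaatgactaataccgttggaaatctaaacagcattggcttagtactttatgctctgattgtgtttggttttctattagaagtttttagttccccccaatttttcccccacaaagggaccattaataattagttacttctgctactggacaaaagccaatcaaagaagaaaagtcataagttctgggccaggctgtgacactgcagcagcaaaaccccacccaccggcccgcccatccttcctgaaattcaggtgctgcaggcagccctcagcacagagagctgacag
Tnfrsf9, other start, chr4:150927749-150928048: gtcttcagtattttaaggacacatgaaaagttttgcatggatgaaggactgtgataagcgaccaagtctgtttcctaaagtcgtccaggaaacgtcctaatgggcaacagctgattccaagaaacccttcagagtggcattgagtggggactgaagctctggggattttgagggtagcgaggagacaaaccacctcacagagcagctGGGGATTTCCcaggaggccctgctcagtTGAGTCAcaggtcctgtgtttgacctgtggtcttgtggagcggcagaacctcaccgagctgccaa
Tnfrsf4, chr4:156013445-156013744: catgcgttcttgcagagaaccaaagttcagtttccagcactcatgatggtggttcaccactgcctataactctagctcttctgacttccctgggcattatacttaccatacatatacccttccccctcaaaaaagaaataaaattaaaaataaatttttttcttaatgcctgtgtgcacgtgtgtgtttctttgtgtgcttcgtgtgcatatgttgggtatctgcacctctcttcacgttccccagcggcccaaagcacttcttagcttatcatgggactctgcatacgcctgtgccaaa
Tnfrsf18, chr4:156026072-156026371: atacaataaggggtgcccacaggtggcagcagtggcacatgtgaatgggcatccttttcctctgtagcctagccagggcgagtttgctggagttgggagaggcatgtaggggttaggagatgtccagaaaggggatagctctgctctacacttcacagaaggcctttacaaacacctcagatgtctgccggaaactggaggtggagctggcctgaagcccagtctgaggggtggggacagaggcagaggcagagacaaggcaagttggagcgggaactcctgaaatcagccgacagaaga
Of 6 promoters of 5 of the genes in that table (these and those of Cd27 and Icosl), only the other start of Tnfrsf9 held either motif, a κB motif that begins 43 bases and an AP-1 motif that begins 15 bases before the start. The letters of the κB motif stand in 1.63% and those of the AP-1 motif in 7.81% of all 32851 promoters. The 2 motifs did not overlap each other. A match describes the sequence and is no evidence of binding.

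Among the receptors of the TNF family, Tnfrsf4 was the only one whose levels in the 3 T cell classes did not overlap. OX40 is induced on T cells after antigen contact and is held by regulatory T cells of mice without further stimulation. In Foxp3+ T cells its level was 752, 615 and 779 CPM in the αPD-1 samples and 1849, 776 and 727 CPM in the αPD-1 + corin samples. The αPD-1 + corin replicate 1, with 16 such cells, stood above the other 5, and the groups overlapped. Over the 6 samples the mean was 916 ± 461 CPM (SD, n = 6) in Foxp3+ T cells, 257 ± 139 CPM in CD4 T cells and 74.2 ± 26.6 CPM in CD8 T cells, and these 3 ranges did not overlap. DC followed with 30.4 ± 15.1 CPM, a range that overlapped that of CD8 T cells, and B cells, NK cells and macrophages had means of 5.01 to 9.72 CPM. NK cells held no Tnfrsf4 UMI in 4 of the 6 samples, where a count of 0 allows 14.5 to 30.9 CPM. Foxp3+ T cells were 0.731% of the kept cells and held 18.9% of all Tnfrsf4 UMIs.

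Tnfrsf9 encodes 4-1BB, which is induced on activated CD8 T cells and NK cells and supports their survival. It too had its highest mean in Foxp3+ T cells, at 598, 620.5 and 534.5 CPM in the αPD-1 samples and 1453, 705 and 558 CPM in the αPD-1 + corin samples. CD8 T cells held 293, 337 and 283 CPM under αPD-1 and 175, 643 and 378 CPM under αPD-1 + corin. All 6 samples had more in Foxp3+ T cells than in CD8 T cells, although the ranges over samples overlapped. The αPD-1 + corin samples included both the lowest and the highest CD8 T cell level. CD4 T cells, at 257 ± 202 CPM, and NK cells, at 206 ± 40.5 CPM, had ranges that overlapped that of CD8 T cells, at 352 ± 158 CPM. CD8 T and CD4 T cells of the same sample are compared below. DC, B cells and macrophages had means of 16.0 to 41.0 CPM, and the lowest NK cell sample lay above the highest DC sample. CD8 T cells, 7.12% of the kept cells, held 36.9% of all Tnfrsf9 UMIs and Foxp3+ T cells 6.66%.

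GITR, the product of Tnfrsf18, is a receptor that regulatory T cells carry at rest and other T cells gain on activation. Foxp3+ T cells held 529, 458 and 564 CPM under αPD-1 and 1155, 555.5 and 548 CPM under αPD-1 + corin, more than CD4 T cells in all 6 samples. Their mean of 635 ± 258 CPM was followed by CD4 T cells with 284 ± 220 CPM, NK cells with 221 ± 38.2 CPM and CD8 T cells with 138 ± 44.9 CPM, and each of these ranges overlapped the next. All CD8 T cell samples lay above all DC samples, whose mean was 43.3 ± 10.1 CPM. Tnfrsf18 in NK cells was even over samples, at 255, 193 and 179 CPM under αPD-1 and at 278, 203 and 217 CPM under αPD-1 + corin, with overlapping groups.

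Cd27, on chromosome 6 (125209585 to 125213988, minus strand), encodes the receptor of CD70 and is found on naive and memory T cells. Its level was 230 ± 61.9 CPM in Foxp3+ T cells, 163 ± 25.8 CPM in CD8 T cells, 137 ± 69.3 CPM in CD4 T cells and 120 ± 46.2 CPM in NK cells, and each range overlapped the next. DC, B cells and macrophages were apart from these, with means of 3.20 to 6.09 CPM.

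**Figure D1:**
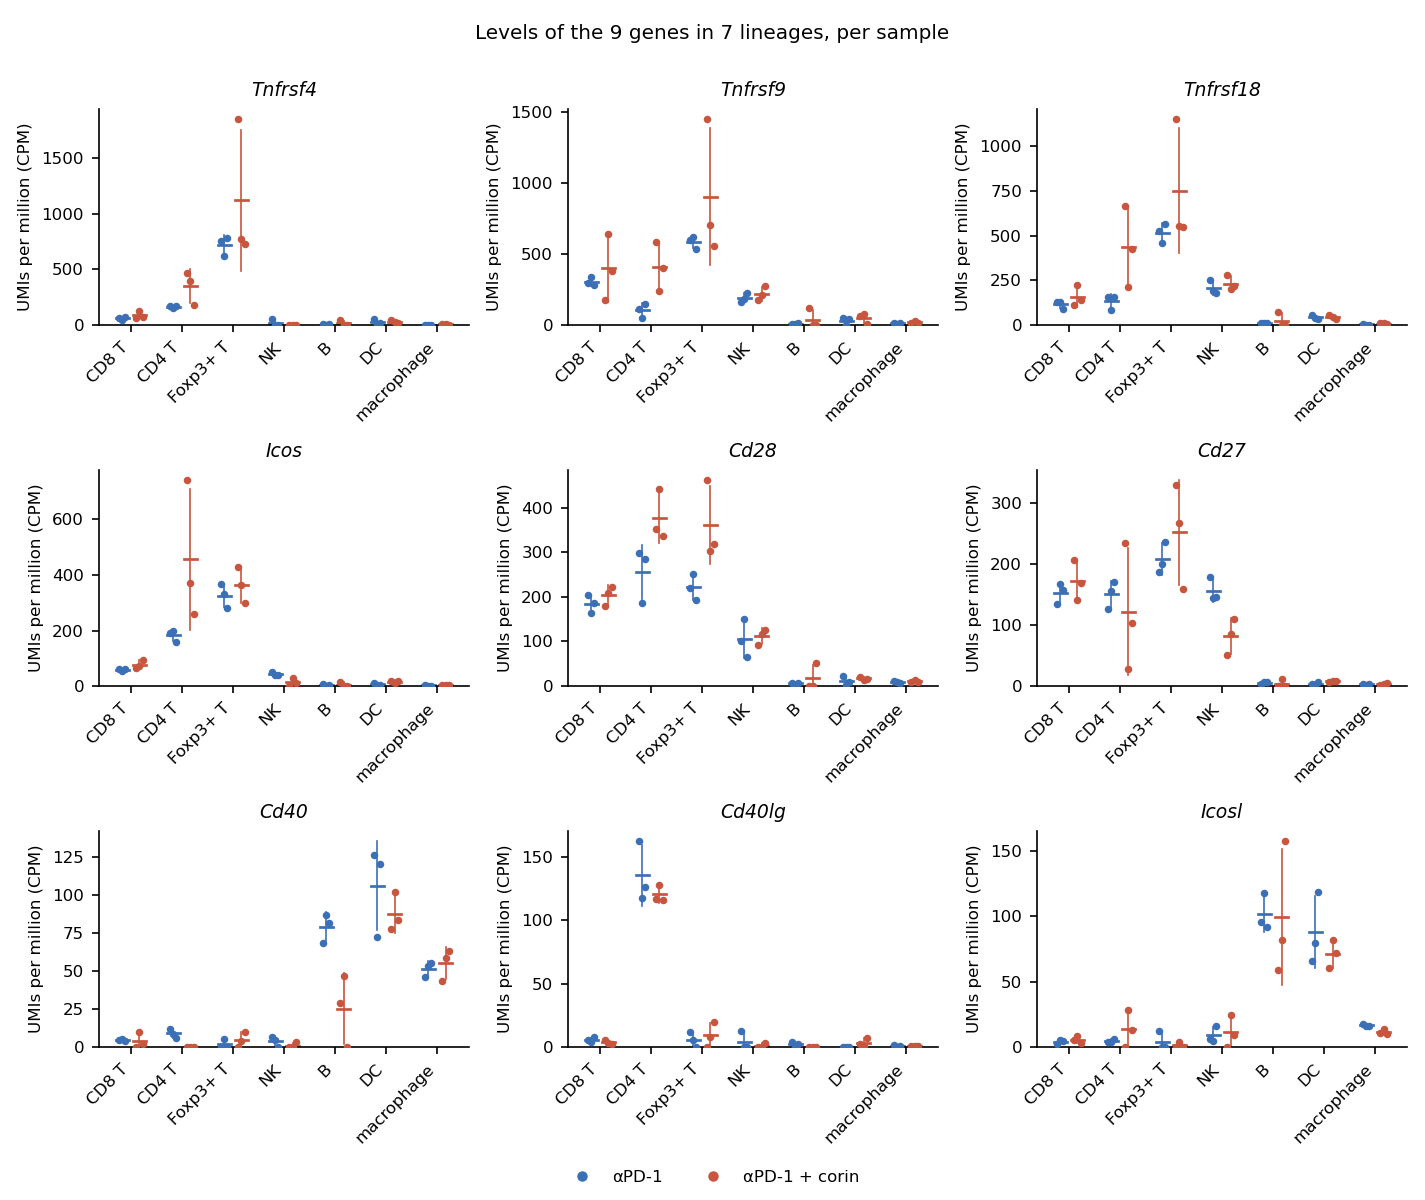
Level of each of the 9 genes (vertical axis, CPM of the lineage, from 0) in 7 lineages (horizontal axis), with 1 point per sample, blue for αPD-1 and red for αPD-1 + corin, and a bar with a line for mean ± SD (n = 3). Tnfrsf4, Tnfrsf9 and Tnfrsf18 peak in Foxp3+ T cells, Cd40lg in CD4 T cells at 116 to 163 CPM, and Cd40 and Icosl in DC, B cells or both.

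The CD28 family pair lies on chromosome 1 with Ctla4 between them: Cd28 at 60755959 to 60812518 and Icos at 61017086 to 61039479, both on the plus strand and 204567 bases apart. CD28 is the constitutive costimulatory receptor of T cells, and ICOS appears after activation and is prominent on helper and regulatory T cells. Icos was shared by CD4 T cells, at 320 ± 220 CPM, and Foxp3+ T cells, at 345 ± 53.2 CPM, and their ranges overlapped. CD8 T cells were below both in all samples, at 63.2, 55.2 and 60.8 CPM under αPD-1 and 65.6, 71.1 and 95.3 CPM under αPD-1 + corin. NK cells followed at 28.4 ± 19.7 CPM, and no other lineage had a mean above 11.3 CPM.

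Cd28 had a flatter pattern over T cells, at 316 ± 84.6 CPM in CD4 T cells, 291 ± 96.4 CPM in Foxp3+ T cells and 194 ± 21.8 CPM in CD8 T cells, with overlapping neighbours. The highest NK cell sample, at 149.8 CPM, lay below the lowest CD8 T cell sample, at 163 CPM, and the NK cell mean was 109 ± 29.2 CPM. Those NK cells carried the T cell gene Cd3e at 36.9 to 130 CPM, and the part of T cell transcripts in their Cd28 was not tested. DC, B cells and macrophages had means of 9.42 to 14.3 CPM.

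Cd40lg, on the X chromosome (56257405 to 56269902, plus strand), encodes the ligand by which helper T cells license antigen-presenting cells. Its level in CD4 T cells was 163, 118 and 126 CPM under αPD-1 and 117, 128 and 116 CPM under αPD-1 + corin, so that the groups overlapped. No other lineage reached 20 CPM in any sample. Foxp3+ T cells held 7.60 ± 7.65 CPM and CD8 T cells 4.74 ± 1.87 CPM, and from Foxp3+ T cells downward all neighbouring ranges overlapped. CD4 T cells held 18.4% of all Cd40lg UMIs, and T cells that were not split, at 12.9 to 70.4 CPM, held 22.8%.

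Its receptor gene Cd40 (chromosome 2, 164897544 to 164914868, plus strand) was a gene of antigen-presenting cells. Under αPD-1, Cd40 stood at 126, 72.6 and 120 CPM in DC, 68.6, 87.1 and 81.8 CPM in B cells and 45.9, 53.2 and 55.4 CPM in macrophages. The corresponding αPD-1 + corin levels were 77.8, 102 and 83.8 CPM in DC, 29.3, 46.6 and 0 CPM in B cells (a count of 0 allows 157 CPM in that sum of 11 cells) and 43.2, 58.8 and 63.4 CPM in macrophages. Every DC sample lay above every macrophage sample, and B cells overlapped macrophages. T and NK cells had means of 2.39 to 4.49 CPM. Macrophages, the most numerous of these cells, held 47.5% of all Cd40 UMIs.

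Icosl (chromosome 10, 77905136 to 77919747, plus strand), which encodes the ligand of ICOS, was shared by B cells and DC. B cells held 95.4, 117.5 and 91.7 CPM under αPD-1 and 58.7, 81.6 and 157 CPM under αPD-1 + corin, the last of these from 3 UMIs in 11 cells. DC held 66.0, 79.4 and 119 CPM under αPD-1 and 60.2, 81.3 and 71.5 CPM under αPD-1 + corin, and their range overlapped that of B cells. All macrophage samples, at 9.82 to 17.4 CPM, lay below all DC samples.

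Within the antigen-presenting cells, Cd40 and Icosl were uneven. Mature DC-like cells, the Ccr7 and Fscn1 cluster of DC that carry antigen to lymph nodes, held 64.4 to 528 CPM of Cd40 and 72.8 to 528 CPM of Icosl, with means of 282 ± 149 and 250 ± 176 CPM. The highest value of both genes came from the αPD-1 + corin replicate 3, with 4 such cells, and the αPD-1 replicate 2 held 9. cDC2-like cells held Cd40 at 130, 163 and 149 CPM under αPD-1 and at 64.6, 104 and 110.5 CPM under αPD-1 + corin, and Tnfrsf4 at 0, 6.04 and 0 CPM against 27.7, 11.8 and 27.6 CPM. cDC1-like cells, the DC of cross-presentation, held 8.74 to 60.6 CPM of Cd40 and 36.7 to 56.6 CPM of Icosl. Monocyte-like cells held Cd40 at 91.0, 73.2 and 67.3 CPM under αPD-1 and at 39.2, 31.0 and 58.8 CPM under αPD-1 + corin. These classes are clusters of the same cells, so their levels are a description, and neither a treatment test nor a share of all genes without overlap was made within them.

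**Figure D2:**
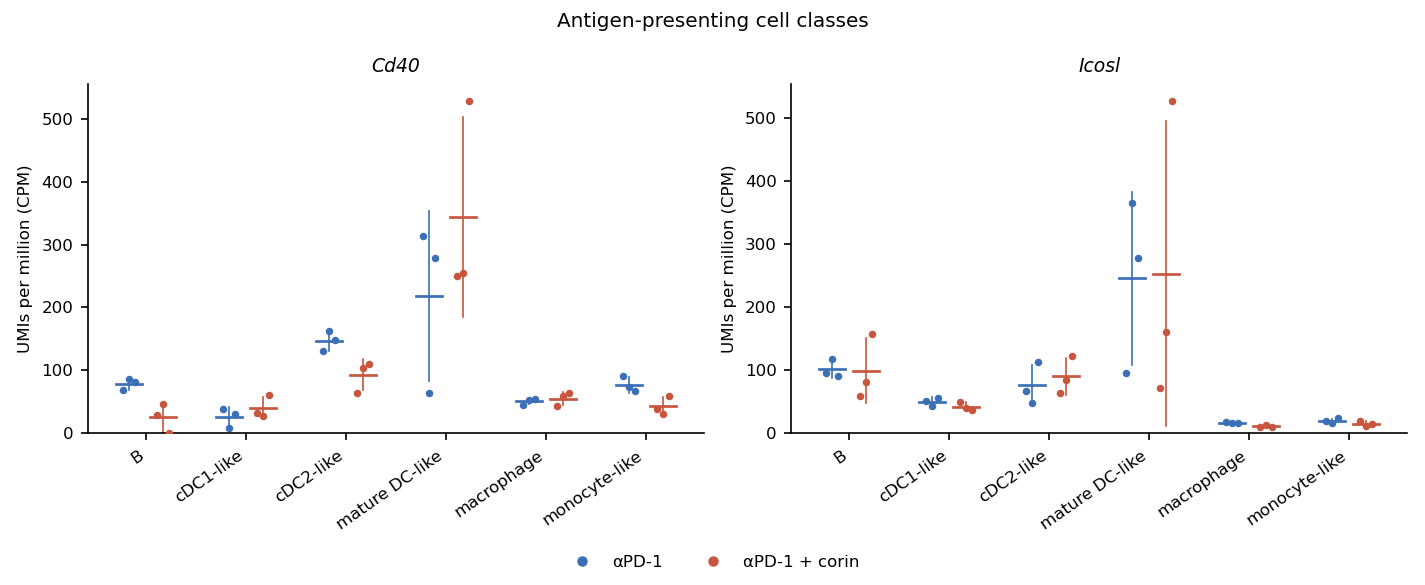
Levels of Cd40 (left) and Icosl (right) in CPM (vertical axis) in 6 classes of antigen-presenting cells (horizontal axis), 1 point per sample, blue for αPD-1 and red for αPD-1 + corin, with mean ± SD (n = 3). Mature DC-like cells have the highest means and the widest spread, with 4 cells in the αPD-1 + corin replicate 3, whose points stand at 528 CPM.

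Seen cell by cell, the same genes were found in part of the cells of their lineage. With each cell thinned to 1000 UMIs, Tnfrsf4 was detected in 35.8% ± 4.60 (SD, n = 3) of Foxp3+ T cells under αPD-1 and in 54.4% ± 10.5 under αPD-1 + corin. CD4 T cells followed with 8.64% ± 1.95 and 21.9% ± 7.20, and CD8 T cells with 3.11% ± 0.432 and 5.91% ± 1.94. Melanoma-like cells, which should lack the gene, gave 0.117% ± 0.202 and 0.0874% ± 0.0939. The median depths were 3507 and 2952 UMIs per cell for Foxp3+ T cells and 3963 and 4714 for melanoma-like cells, and without thinning the shares in Foxp3+ T cells were 63.0% and 83.0%. Cd40lg was detected in 11.98% ± 0.843 and 13.6% ± 1.08 of thinned CD4 T cells and in 0% and 0.0840% ± 0.145 of melanoma-like cells. With 3 samples against 3 the smallest p that the two-sided exact permutation test can give is 0.1, and after Benjamini-Hochberg adjustment over the 63 pairs of gene and lineage none was below 0.35. Thinning to 1000 UMIs left out 2 to 4 CD4 T cells, no Foxp3+ T cell and 2 to 15 CD8 T cells a group.

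The Foxp3+ T cells were compared with the CD4 T cells of the same sample, a comparison in which the split did not use the 9 genes. Tnfrsf4, Tnfrsf9 and Tnfrsf18 were higher and Cd40lg was lower in Foxp3+ T cells. The edgeR quasi-likelihood test with the sample as a block, adjusted over all genes (Benjamini-Hochberg), called 4 of the 7 genes tested, where 14.4% of 2604 genes were called. Tnfrsf4 was 3.53-fold higher (log2 fold change 1.82 ± 0.19 SE, adjusted p = 1.23e-06). Tnfrsf9 was 3.48-fold higher (1.80 ± 0.26, adjusted p = 8.25e-05), and Tnfrsf18 was 2.65-fold higher (1.41 ± 0.22, adjusted p = 1.88e-04). All 3 were higher in 6 of 6 samples. Cd40lg differed by -3.92 ± 0.41 on the log2 scale (adjusted p = 1.23e-06), with 8 UMIs in all Foxp3+ T cells. Cd27 (0.66 ± 0.24, adjusted p = 0.0739), Icos (0.36 ± 0.20, 0.251) and Cd28 (-0.24 ± 0.19, 0.427) were not called. With the αPD-1 + corin samples alone only Tnfrsf4 was called (1.54, adjusted p = 0.0398), and Tnfrsf9 stood at 1.06 and Tnfrsf18 at 0.80. With the αPD-1 samples alone, these were 2.49 and 1.94 and Icos, at 0.79, was also called (adjusted p = 0.00415). Over all genes, 7 were called with the αPD-1 + corin samples alone and 793 with the αPD-1 samples alone, against 374 with all 6 samples.

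Regulatory T cell genes outside the split moved with these receptors. Ikzf2 (Helios), Il2ra (CD25) and Ctla4 (CTLA-4, the inhibitory competitor of CD28) were higher in Foxp3+ T cells by 1.92, 1.81 and 1.35 on the log2 scale, and with Foxp3, which defined the cells, 4 of 4 genes of the regulatory T cell list were called higher. Stmn1, Top2a and Mki67, 3 of the 3 cell cycle genes tested, were also higher, by 1.47, 1.49 and 0.89, and 5 of 6 naive T cell genes were lower, led by Tcf7 (-2.54), Satb1 (-2.25) and Lef1 (-1.71). Naive-like cells, those with a Lef1 or Ccr7 UMI, were 61.5 to 70.0% of the CD4 T cells and 43.2 to 50% of the Foxp3+ T cells under αPD-1, and 0 to 23.1% and 17.9 to 35% under αPD-1 + corin. When naive-like cells were left out, Tnfrsf4 (1.56), Tnfrsf9 (1.54) and Tnfrsf18 (0.99) were called among 5 genes tested, and Cd40lg fell below the filter on low counts. That fit called 51 genes in all. Cycling cells were 2.27 to 16.9% of the CD4 T cells and 32.4 to 35.3% of the Foxp3+ T cells under αPD-1. Under αPD-1 + corin they were 9.68 to 15.4% and 25 to 39.3%. Median depths of CD4 T cells were 2044 UMIs per cell under αPD-1 and 1858 under αPD-1 + corin, against 3507 and 2952 in Foxp3+ T cells. Of 7 dissociation stress genes tested, 4 were lower in Foxp3+ T cells. The part of stress, of cycling and of depth in these differences was not tested.

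CD8 T cells were compared with CD4 T cells of the same sample in the same way. Icos, Tnfrsf4, Cd28 and Cd40lg were lower and Tnfrsf9 was higher in CD8 T cells, 5 of 7 genes tested, where 15.4% of 3965 genes were called. Cd40lg differed by -4.83 ± 0.28 on the log2 scale, Icos by -1.86 ± 0.20 and Tnfrsf4 by -1.56 ± 0.17 (adjusted p = 2.18e-09, 9.04e-06 and 1.21e-05). Cd28 differed by -0.59 ± 0.15 (adjusted p = 0.0123). Tnfrsf9 was 1.93-fold higher (0.95 ± 0.30, adjusted p = 0.0429), and this call came from the αPD-1 samples, with 1.62 (adjusted p = 6.08e-05) in them and 0.10 (adjusted p = 0.941) in the αPD-1 + corin samples. Fits of those samples alone called 698 and 51 genes in all. Tnfrsf18 (-0.60 ± 0.26, adjusted p = 0.126) and Cd27 (0.27 ± 0.21, 0.402) were not called. Without the αPD-1 + corin replicate 2, Cd28 (-0.48, adjusted p = 0.0534) and Tnfrsf9 (0.87, adjusted p = 0.102) lost their calls and 3 were left. Of the other costimulatory genes, 5 of 5 tested were called: Slamf6, Slamf1 and Cd2, adhesion and signaling receptors of T cells, were lower by -1.60, -0.96 and -0.46, and Cd226 and Cd48 were higher by 0.85 and 0.54. In the same comparison 6 of 7 naive T cell genes and 5 of 8 stress genes were lower and 3 of 4 cell cycle genes were higher in CD8 T cells. Their part in these differences was not tested.

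**Figure D3:**
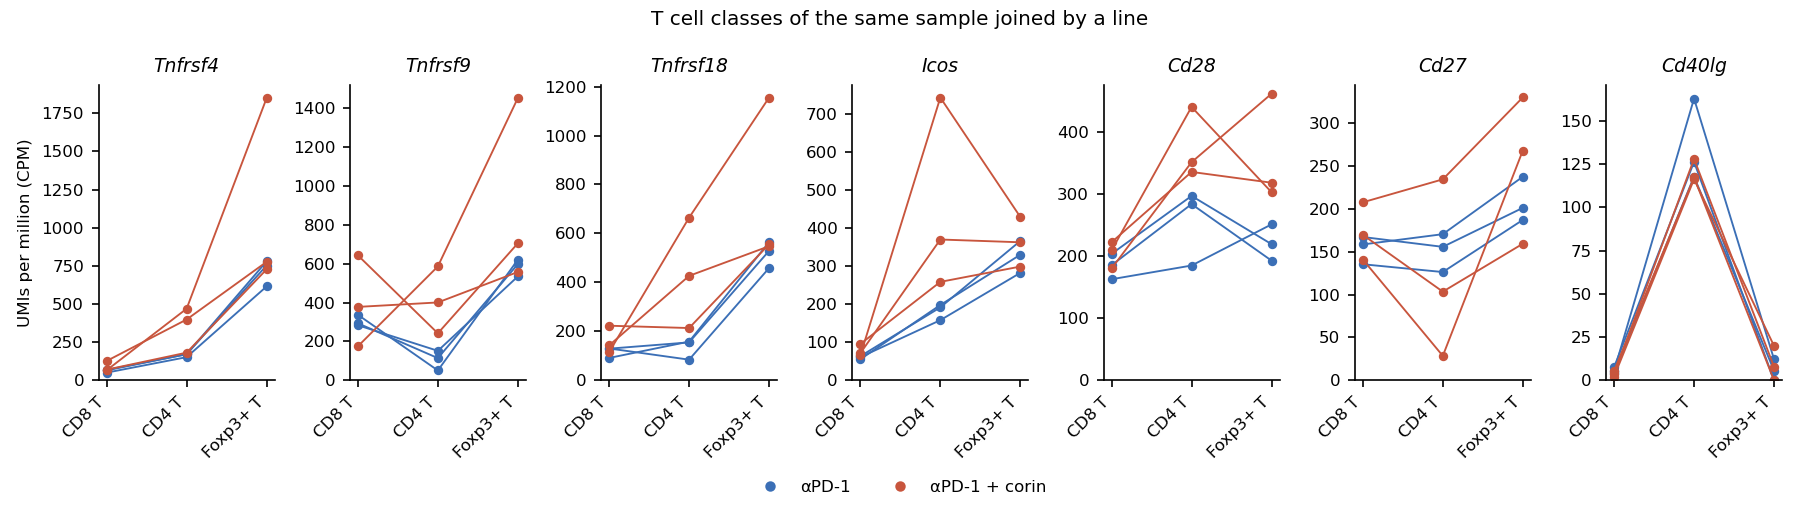
Levels of 7 genes in CPM (vertical axis, from 0) in CD8 T, CD4 T and Foxp3+ T cells (horizontal axis), with a line joining the classes of 1 sample, blue for αPD-1 and red for αPD-1 + corin. Tnfrsf4 rises from CD8 T to Foxp3+ T cells in all 6 samples, and Cd40lg peaks in CD4 T cells in all 6.

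With corin added, members were called in CD4 T cells and in no other lineage. Tnfrsf9, Tnfrsf18 and Icos were higher with αPD-1 + corin, 3 of the 7 genes tested, where 7.75% of 2181 genes were called and 3.94% were called higher. Tnfrsf9 stood at 114, 50.5 and 152 CPM under αPD-1 and at 586, 242 and 401 CPM under αPD-1 + corin (28, 12 and 24 against 15, 17 and 31 UMIs). The groups did not overlap, and the rise was 3.53-fold (log2 fold change 1.82 ± 0.37 SE, adjusted p = 0.00777).

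Tnfrsf18 stood at 155, 84.2 and 158 CPM against 664.5, 213 and 427 CPM, without overlap, a 2.86-fold rise (1.51 ± 0.35, adjusted p = 0.0152). Icos stood at 191.5, 198 and 158 CPM against 743, 369.8 and 258 CPM, also without overlap, a 2.05-fold rise (1.04 ± 0.30, adjusted p = 0.0451). For both genes the αPD-1 + corin replicate 1, with 13 CD4 T cells, was the highest sample. Without it the Icos value was 0.74 and its call was lost (adjusted p = 0.167), and with the other tool, DESeq2, which called 2 of the 7 genes, its adjusted p was 0.0593. Without the αPD-1 replicate 2 only Tnfrsf9 was called (1.42, adjusted p = 0.0412), with Tnfrsf18 at 1.22 (adjusted p = 0.0838) and Icos at 1.06 (adjusted p = 0.110).

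The other receptors of CD4 T cells were not called. Tnfrsf4 stood at 171, 152 and 170.5 CPM against 469, 398 and 181 CPM (0.91 ± 0.31, adjusted p = 0.0821), and Cd28 at 297, 185 and 284 CPM against 352, 441 and 336 CPM (0.53 ± 0.26, 0.229). Neither gene's groups overlapped, so that 5 of 7 genes were higher without overlap, as were 16.4% of all genes tested. Cd27 stood at 126, 156 and 170.5 CPM against 234.5, 28.5 and 103 CPM (-0.70 ± 0.45, adjusted p = 0.363). Cd40lg, whose level is given above, differed by -0.22 ± 0.34 (adjusted p = 0.761), with a 95% interval of -0.89 to 0.45.

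The CD4 T cells of the αPD-1 + corin samples also held a lower share of naive-like cells, whose ranges are given above. The share went with the treatment, and its part in these differences was not tested. In the same fit 6 of 6 naive T cell genes tested fell, among them Lef1, from 725, 732 and 594 CPM to 0, 142 and 51.7 CPM, Satb1, from 468.5, 585 and 524 CPM to 117, 171 and 155 CPM, and Igfbp4, from 147, 248 and 101 CPM to 0, 14.2 and 0 CPM. In those CD4 T cell sums a count of 0 allows 117 CPM in the αPD-1 + corin replicate 1 and 38.8 CPM in replicate 3. Lef1 UMIs define naive-like cells, so the fall of Lef1 restates their lower share. With naive-like cells left out, no gene of the 9 was called (6 tested, none at an unadjusted p under 0.05). This cut the αPD-1 CD4 T cells from 100, 88 and 65 to 30, 27 and 25. The αPD-1 + corin cells went from 13, 26 and 31 to 13, 20 and 26. The part of the smaller cell numbers in the lost calls was not tested. The fold changes on the log2 scale were then 0.83 ± 0.44 for Tnfrsf9, 0.60 ± 0.36 for Tnfrsf18 and 0.58 ± 0.39 for Icos (adjusted p = 0.452, 0.519 and 0.572). In those cells Tnfrsf9 stood at 275.5, 71.4 and 341 CPM under αPD-1 and 586, 297 and 455 CPM under αPD-1 + corin, and the groups overlapped.

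**Figure D4:**
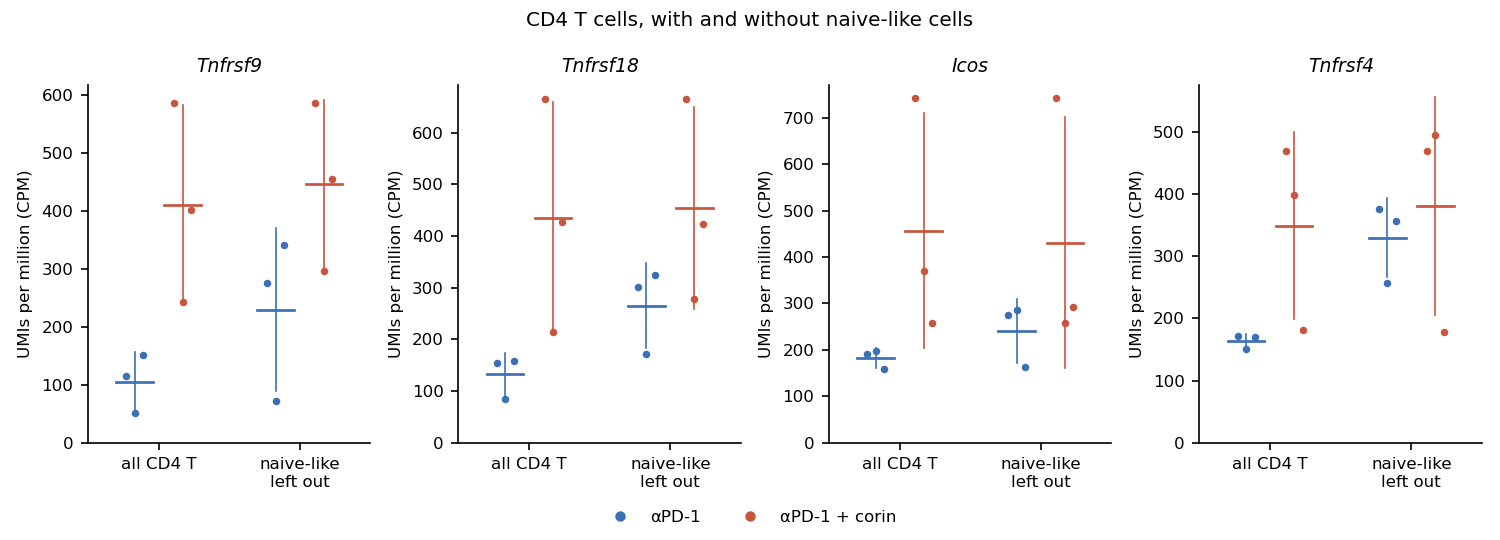
Levels of Tnfrsf9, Tnfrsf18, Icos and Tnfrsf4 in CPM (vertical axis, from 0) in all CD4 T cells and in CD4 T cells without a Lef1 or Ccr7 UMI (naive-like left out), 1 point per sample, blue for αPD-1 and red for αPD-1 + corin, with mean ± SD (n = 3). The αPD-1 means rise when naive-like cells are left out, from 105 to 229 CPM for Tnfrsf9, and the αPD-1 + corin means change less, from 410 to 446 CPM.

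CD4 T cells without a Foxp3 UMI may include regulatory T cells in which Foxp3 was missed. Cells with an Ikzf2 UMI were 19.3 to 26.2% of CD4 T cells under αPD-1 and 25.8 to 30.8% under αPD-1 + corin, against 81.3 to 91.1% of Foxp3+ T cells. When they and, for lack of cells, the αPD-1 + corin replicate 1 were left out, 1 member was called, Tnfrsf18 (1.71, adjusted p = 0.0439), and Tnfrsf9 stood at 1.60 (adjusted p = 0.120) and Icos at 1.23 (adjusted p = 0.0767). The clusters also differed: 80 of 100, 68 of 88 and 43 of 65 CD4 T cells of the αPD-1 samples lay outside the Treg-like T cell subclusters, but only 2 of 13, 10 of 26 and 11 of 31 of the αPD-1 + corin samples. In those subclusters, of 481 and 171 cells, 30.15% and 2.92% of cells held a Foxp3 UMI and 71.1% and 36.8% a Cd3e UMI. Their name does not show that each cell was a regulatory T cell. With T cells of those subclusters taken out of the CD4 T cells, and the αPD-1 + corin replicate 1 left out for lack of cells, Tnfrsf9 (2.92, adjusted p = 0.0312) and Tnfrsf18 (2.36, adjusted p = 0.0108) were called and Icos was not (1.04, adjusted p = 0.480). The dissociation stress genes Hspa1a, Jun and Hspa1b also fell in CD4 T cells, 3 of 7 tested, with Hspa1a at 1348, 1254 and 1175 CPM against 117, 369.8 and 375 CPM. Neutrophil markers in CD4 T cells summed to 12.2 to 25.3 CPM under αPD-1 and 12.9 to 352 CPM under αPD-1 + corin, with Cxcr2 and Retnlg at 0. The part of stress and of these markers in the result was not tested.

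In CD8 T cells none of the 6 genes tested was called, where 5.97% of 8379 genes were, although all 6 values were positive and 3 had an unadjusted p under 0.05. DESeq2 also called none. Icos, given above, was the only one higher without overlap between groups, as were 9.95% of all genes (0.54 ± 0.18, adjusted p = 0.0876). Tnfrsf4 stood at 65.0, 49.96 and 68.4 CPM against 65.6, 126.5 and 69.5 CPM (0.60 ± 0.23, adjusted p = 0.143), and Tnfrsf18 at 129, 129.9 and 91.2 CPM against 115, 223 and 142 CPM (0.54 ± 0.20, adjusted p = 0.140). The αPD-1 + corin replicate 2 was the highest sample for both. Tnfrsf9 (0.51 ± 0.27, adjusted p = 0.291), Cd28 (0.24 ± 0.14, 0.345) and Cd27 (0.15 ± 0.16, 0.645) had intervals that included 0. The calls depended on which cells and samples were counted: with cycling cells left out Icos, Tnfrsf9 and Tnfrsf18 were called (0.94, 0.99 and 0.75, adjusted p = 0.00447, 0.0333 and 0.0189), and without the αPD-1 + corin replicate 1 Tnfrsf9 was (0.76, adjusted p = 0.0320). Calls over all genes rose as well, to 888 and 590 in these fits, against 500 in the main fit. In CD8 T cells 7 of 8 naive T cell genes and 3 of 8 stress genes fell, and naive-like cells were 48.4 to 60.3% under αPD-1 and 18.3 to 26.9% under αPD-1 + corin.

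Foxp3+ T cells showed no call among 6 genes (0.531% of 3016 genes were called), by edgeR or DESeq2, and 1 unadjusted p under 0.05. That gene was Cd28, at 219.6, 251.5 and 193 CPM against 462, 303 and 319 CPM, the only one higher without overlap, as were 7.73% of all genes (0.53 ± 0.22, adjusted p = 0.396 by edgeR). The 95% intervals of Tnfrsf4 (-0.06 to 0.86), Tnfrsf9 (-0.05 to 0.84), Tnfrsf18 (-0.12 to 0.75), Cd27 (-0.28 to 0.67) and Icos (-0.36 to 0.47) all included 0. Il2ra, the CD25 gene, was called higher in the same cells (1.06, adjusted p = 0.0324), from 171, 229 and 215 CPM to 561, 339 and 518 CPM. With naive-like cells left out no gene was called in Foxp3+ T cells (16 with them), so this call was lost, and their share was 43.2 to 50% under αPD-1 and 17.9 to 35% under αPD-1 + corin.

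In NK cells 4 genes were tested and none was called by edgeR (0.939% of 2876 genes were), and DESeq2 gave no adjusted p for them. Cd27, which marks the less mature NK cells of mice, stood at 178.5, 145 and 146 CPM under αPD-1 and at 51.5, 86.2 and 110 CPM under αPD-1 + corin. It was the only one with an unadjusted p under 0.05 and the only one lower without overlap, as were 9.49% of all genes (-0.72 ± 0.29, adjusted p = 0.306 by edgeR). T cell transcripts in these NK cells were lower too, with Cd3e at 76.5, 101.5 and 130 CPM against 51.5, 36.9 and 66.2 CPM and all 6 T cell markers summing to 474 to 836 against 268 to 554 CPM, and their part in the Cd27 value was not tested. Tnfrsf9 (0.34 ± 0.23, adjusted p = 0.656), Tnfrsf18 (0.16 ± 0.22, 0.873) and Cd28 (0.11 ± 0.30, 0.952) had intervals that included 0. Icos had too few UMIs for the fit, at 51.0, 38.7 and 40.6 CPM against 0, 30.8 and 9.45 CPM, where a count of 0 allows 30.9 CPM. In the NK cells 3 of 8 stress genes fell.

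In B cells both genes tested were lower with corin and neither was called (2.07% of 8015 genes were, and the median of all genes was -0.20 on the log2 scale). Cd40, given above, was lower without overlap in all αPD-1 + corin samples, as were 19.5% of all genes tested, but these held 2, 4 and 0 Cd40 UMIs against 118, 143 and 189 (-1.25 ± 0.55, adjusted p = 0.256 by edgeR). Its unadjusted p was under 0.05, and DESeq2 gave it no adjusted p. Icosl did not differ beyond its spread (-0.38 ± 0.40, adjusted p = 0.770). Without the αPD-1 + corin replicate 2, Tnfrsf9 passed the filter on low counts and was called (3.23, adjusted p = 0.00565), but all its αPD-1 + corin UMIs, 8 in number, came from replicate 1 with 47 cells (117 CPM, against 0 and 0 CPM), and T cell markers in B cells summed to as much as 235 CPM under αPD-1 + corin against 97.7 CPM under αPD-1. Of the partner ligands Cd86, a ligand of CD28 and CTLA-4, rose from 192, 164 and 199.9 CPM to 411, 408 and 367 CPM (1.05, adjusted p = 0.00231), 1 of 3 tested. In these B cells 4 of 8 stress genes fell, and neutrophil markers summed to 4.26 to 39.0 CPM under αPD-1 and 0 to 967 CPM under αPD-1 + corin, and their part in these values was not tested.

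In DC none of 6 genes was called by edgeR or DESeq2 (0.111% of 7216 genes were called by edgeR), and none had an unadjusted p under 0.05 or groups without overlap, where 15.3% of all genes did not overlap. Cd40 differed by -0.24 (95% interval -0.66 to 0.19) and Icosl by -0.27 (-0.72 to 0.17). In macrophages none of 8 genes was called by edgeR or DESeq2, where 0.0427% of 11713 genes were called by edgeR, and 2 had an unadjusted p under 0.05. Cd40 differed there by 0.23 (-0.09 to 0.55) and Icosl by -0.38 (-0.72 to -0.04), the only gene lower without overlap, as were 22.9% of all genes, at 17.4, 15.9 and 16.2 CPM against 10.8, 14.0 and 9.82 CPM (edgeR, adjusted p = 0.281). The unadjusted p of Icosl was not under 0.05, although its approximate interval was all negative.

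The 2 macrophage genes with a small p encode costimulatory receptors of T cells and stood at a low level. Tnfrsf4 stood at 4.54, 2.68 and 1.18 CPM against 6.29, 11.97 and 3.38 CPM (1.47 ± 0.53, adjusted p = 0.213), and Tnfrsf18 at 5.02, 2.87 and 3.24 CPM against 9.16, 10.9 and 3.70 CPM (1.26 ± 0.42, adjusted p = 0.194). The groups overlapped for both. Without the αPD-1 + corin replicate 3 both were called (1.75 and 1.57, adjusted p = 0.0152 and 0.00369). That fit called 2503 genes in all, against 5 with the replicate kept, so these calls are not particular to the 2 genes. T cell markers in these macrophages summed to 31.0 to 82.2 CPM under αPD-1 and 47.4 to 81.0 CPM under αPD-1 + corin. Once macrophages with 2 or more UMIs of another lineage's markers were left out, both genes fell below the filter on low counts.

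**Figure D5:**
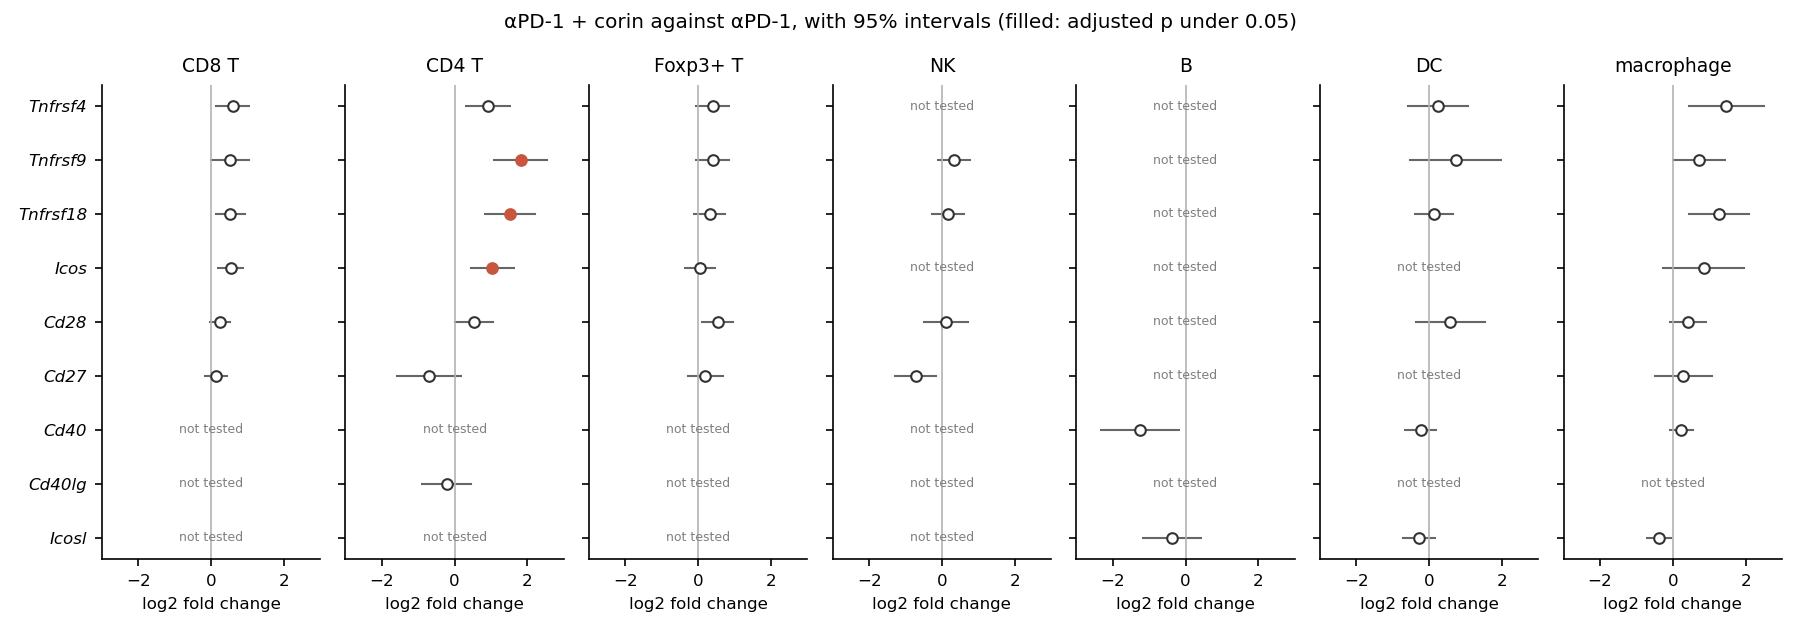
Log2 fold change of αPD-1 + corin against αPD-1 (horizontal axis) for the 9 genes (vertical axis) in 7 lineages, with 95% intervals. Filled points have an adjusted p under 0.05, which only Tnfrsf9, Tnfrsf18 and Icos in CD4 T cells have, and genes under the filter on low counts are marked as not tested.

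Whether the response to corin differed between lineages was tested directly. Between CD8 T and Foxp3+ T cells 0 of 6 genes were called (0.911% of 4061 genes) and none had an unadjusted p under 0.05. For DC against macrophages it was 0 of 7 genes (0.0197% of 10138 genes), with an unadjusted p under 0.05 for Tnfrsf18 (-1.07, adjusted p = 0.366). In CD4 T cells against Foxp3+ T cells, a comparison added after the CD4 T cell values were seen, 0 of 7 were called (0.346% of 2604 genes). There Tnfrsf9 differed by 1.42 ± 0.40, Tnfrsf18 by 1.12 ± 0.34 and Icos by 0.92 ± 0.33 (each with an unadjusted p under 0.05, and adjusted p = 0.128, 0.159 and 0.204). CD8 T cells against CD4 T cells, also added, gave 0 of 7 (0.101% of 3965 genes) and 3 with an unadjusted p under 0.05. So the CD4 T cell rises are not shown to differ from those of the other T cells. Each interaction was fitted with edgeR alone.

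Other genes of these pathways were counted by list. Of the ligands of the 9 genes' family and Ctla4, 5 of 7 were tested in CD8 T cells and 1 in each of the CD4 T and Foxp3+ T cells, with no call. Among 20 signaling genes below the receptors, Tnfaip3, an NF-κB target and inhibitor, rose in CD8 T cells (0.48), CD4 T cells (0.92) and NK cells (0.93). Prkcq, the kinase that links CD28 to NF-κB, fell in CD8 T cells by 1.06 and in CD4 T cells by 1.53 on the log2 scale, and Grap2 fell in CD8 T cells by 0.75. These were the calls, 3 among 20 genes tested in CD8 T cells, 2 among 13 in CD4 T cells and 1 among 16 in NK cells, where 5.97%, 7.75% and 0.939% of all genes were called, and the medians of the list were -0.20, -0.22 and -0.07 on the log2 scale. With naive-like cells left out edgeR called no gene at all in CD8 T cells (500 with them), so that every CD8 T cell call given here was lost. None of the signaling genes tested was called by edgeR in Foxp3+ T cells (17), B cells (19), DC (19) or macrophages (20). No cell cycle gene was called for treatment in any lineage, and of the regulatory T cell list Il2ra was called higher in CD8 T cells (1.01) besides the Foxp3+ T cells. In DC the 1 call among 4 partner genes was Ctla4, at 11.3, 2.27 and 5.01 CPM against 46.4, 38.3 and 45.6 CPM (2.80, adjusted p = 0.0141), and T cell markers in DC summed to 68.0 to 117 CPM under αPD-1 and 138 to 192 CPM under αPD-1 + corin, whose part in it was not tested. Tnfsf8, the ligand of CD30, was the 1 other costimulatory gene called, at 25.3, 26.3 and 34.7 CPM against 5.47, 3.61 and 4.78 CPM in CD8 T cells (-2.56, adjusted p = 3.53e-04). In Foxp3+ T cells against CD4 T cells, 5 of 14 signaling genes were lower, among them Prkcq (-1.51) and Grap2 (-1.30), and Cd2 was higher (0.57).

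Over the 42 sums of sample and lineage, pairs of receptors differed in likeness. Tnfrsf9 and Tnfrsf18 had Pearson's r = 0.941 of log2(CPM + 10), Icos and Tnfrsf4 had 0.914, and Cd28 and Cd27 had 0.902. Tnfrsf4 was less like Tnfrsf9 (0.736), Cd28 (0.724) and Cd27 (0.648), and Cd40 ran opposite to Cd28 (-0.856), Cd27 (-0.816) and Tnfrsf9 (-0.745). Among 8780 genes, those most like Tnfrsf9 and like Tnfrsf18 included Tigit (0.964 and 0.945) and Ikzf2 (0.910 and 0.933). Tnfrsf4 ran with Izumo1r, Cd5 and Ctla4 (0.931, 0.930 and 0.921), and Icos with Ctla4, Cd5 and Cd6 (0.945, 0.943 and 0.929). Cd28 was most like Zap70, Tox and Cd3g (0.952, 0.936 and 0.931), and Cd27 most like Tox, Cd247 and Lck (0.947, 0.945 and 0.944). Cd40 ran with Pkib and H2-DMb1 (0.926 and 0.919), and Icosl with H2-DMb2, Kynu and Rubcnl (0.925, 0.918 and 0.916). Cd40lg, which peaked in 1 lineage, was less closely matched, by Trbv20, Cd4 and B630019A10Rik (0.828, 0.805 and 0.791). The 42 sums share libraries and lineages, so these values are a description.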

How the data were processed

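UMI counts per gene and barcode, made by the authors with Cell Ranger (8.0.1 in the file headers) on GRCm39, were deposited as filtered matrices. Barcodes were filtered to a range of 600 to 4000 detected genes, with no more than 10% of UMIs mitochondrial, and doublets were removed per sample with the Scrublet of scanpy 1.11.5 at 0.4% per 1000 barcodes. Cells were clustered with Seurat 5.3.0 and sctransform 0.4.2 on 3000 variable genes without the 9 genes or the markers (20 components, resolution 0.8). T and NK cells together, and DC, were then reclustered. Subclusters of which 20% or more of cells held markers of T cells and another lineage were dropped. Those dropped held 1037, 355 and 108 cells of the T and NK set and 156 and 155 cells of the DC set. T cells were split by UMIs of Foxp3, of Cd8a or Cd8b1 without Cd4, and of Cd4 without Cd8. Raw counts were summed per sample and lineage (10 or more cells) and tested with edgeR 4.0.16 (TMM, filterByExpr, quasi-likelihood F test, Benjamini-Hochberg over all genes, threshold 0.05), with the sample as a block between T cell classes. Errors of fold changes are SE, and the 95% intervals are ± 1.96 SE, an approximation. With few samples they are narrower than the F test allows, so an interval that excludes 0 is no call. DESeq2 1.42.0, other scaling, filters, cell selections and samples were alternatives. The fits were tested on simulated counts. CD4 T sums held 25583 to 245489 UMIs. Limits from a count of 0 (3 UMIs) cover counting error only, while the SE of a fit also takes in the spread between samples.

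The 9 genes and all gene lists were chosen with earlier results of these data known. Named genes were all 9 members, up to 3 genes each way of each list that passed the threshold, by fold change, and the 3 genes most like each member among those with a mean of at least 20 CPM in a lineage. Some genes that this rule names are not reported here. The mixed subclusters kept, the Treg-like subcluster and the CD4 T cell interactions were alternatives chosen after seeing the data. Replicate numbers were not taken as pairs, since the correlation of same-numbered samples' deviations was -0.213 to 0.107 and in no lineage above 0.1 for all 3 numbers.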

Additional observations from a re-analysis of the deposited data

How the results depend on the processing

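Of the fold changes called in the T cell results, 211 values under alternatives gave 180 that kept their call, 31 that lost it and 0 that changed direction. Most losses were Icos in CD4 T cells (10 of 18) and Tnfrsf9 in CD8 T against CD4 T cells (10 of 17, 0.10 to 1.62). In CD8 T cells, with none called, 3 members were called with cycling cells left out, 3 with no filter on low counts, 1 with LogNormalize and Leiden clusters, 1 with cells holding UMIs of another lineage left out, and 0 to 1 when each replicate was left out. Over all genes, the fits of these cell, filter and cluster settings called 888, 865, 445 and 684 in the same order, against 500 in the main fit. In CD4 T cells, with 3 called, 4 were called with cycling cells left out, 0 with naive-like cells left out, 1 with Ikzf2 cells left out, 2 with DESeq2, and 1 to 3 when each replicate was left out. B cells gave 0 to 1 and macrophages 0 to 2 when each replicate was left out, and macrophages gave 2 with no filter. Of 4 members called in Foxp3+ T against CD4 T cells, 1 was called in the αPD-1 + corin samples alone (7 genes in all). Of 5 in CD8 T against CD4 T cells, 3 were called there, 4 with no replicate block, and 3 to 5 when each replicate was left out. The cause of these changes was not tested.

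With the replicate number as a block, the treatment fit called the same number of members, 3 in CD4 T cells (Tnfrsf9, Tnfrsf18 and Icos, adjusted p = 0.00141, 0.00318 and 0.0269), and 0 in the other lineages, and 0 to 3 of 6 samples correlated best with their own number. Genes called in all numbered 169 in CD4 T cells, but 11 with naive-like cells left out and 91 with DESeq2. With naive-like cells left out they fell from 500 to 0 in CD8 T cells and from 16 to 0 in Foxp3+ T cells, where they numbered 1 with the replicate block and 2 with DESeq2. Fewer cells were summed without the naive-like cells, and the part of this in the falls was not tested. In macrophages the genes called numbered 5, but 844 with no filter, 260 with DESeq2 and 2503 without the αPD-1 + corin replicate 3. The lineage with the highest mean was the same for 9 of 9 genes except with the Treg-like subcluster (8). Small sums limit the precision, with 13 to 31 CD4 T and 11 to 48 B cells per αPD-1 + corin sample.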

Other observations

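Some of the 9 genes were also found outside the lineages compared above. Cd28 stood at 123, 95.3 and 95.6 CPM in plasma-like cells of the αPD-1 samples and at 149, 87.9 and 0 CPM in those of the αPD-1 + corin samples, from 432 and 9 UMIs in all and from only 5, 4 and 2 cells in the latter. In that cluster 27.0% of cells held markers of both T and B cells and 19.2% held a Cd3e UMI, whose part in the value was not tested. Tnfrsf4 stood at 257, 107 and 108 CPM in mature DC-like cells under αPD-1 and at 50.02, 75.1 and 302 CPM under αPD-1 + corin. The 302 CPM were 4 UMIs in 4 cells, and the groups overlapped.

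Of the partner genes, Tnfsf9, which encodes the ligand of 4-1BB, stood at 47.2, 30.8 and 26.4 CPM in monocyte-like cells under αPD-1 and at 80.7, 65.1 and 82.6 CPM under αPD-1 + corin. These values were picked out after they were seen, and the difference was not tested.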
